A study of Mus musculus with 29 samples.

Results

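The miR-106b-25 cluster is a group of 3 microRNA (miRNA) genes, Mir106b, Mir93 and Mir25, that lie side by side in a host gene. The genes are transcribed together, and each gives a hairpin. The arms of a hairpin are cut into short RNAs, named 5p and 3p after the arm they come from. The 6 mature miRNAs of mouse, mmu-miR-106b-5p, mmu-miR-106b-3p, mmu-miR-93-5p, mmu-miR-93-3p, mmu-miR-25-3p and mmu-miR-25-5p, were taken by name and are written without the species prefix from here on. They are 6 of the 1183 mature miRNAs in the deposited count table, and all 6 are among the 695 with a value in every library.

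Small RNA was sequenced from the serum and from the tibialis anterior, a shin muscle made mostly of fast-twitch fibres, of C57BL/6 mice. Old mice, aged 24 months, gave 4 serum and 5 muscle libraries. Disuse mice, aged 6 months and with muscle atrophy induced by disuse, gave 5 libraries of each source. Young control mice, aged 6 months, also gave 5 of each, which makes 29 libraries in 6 groups. How disuse was imposed, and for how long, is not given in the sources used here. No label states that numbered libraries come from separate animals, or that serum and muscle came from the same ones, so each p-value rests on the spread among these samples, some of which may be technical.

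miRNAs guide Argonaute proteins to messenger RNAs that pair with the seed, the bases next to the 5′ end of the miRNA, and those messenger RNAs are then repressed. The cluster lies in Mcm7, which encodes a subunit of the helicase that unwinds DNA for replication, and it is a paralogue of the miR-17-92 cluster, known for its role in cell proliferation. In human cells the cluster has been described as induced with Mcm7 by the cell cycle factor E2F1, with the cell cycle inhibitor p21 among the targets of miR-106b and miR-93 and the cell death factor BIM among those of miR-25.

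The mature sequences, from the RefSeq table of build GRCm38.p6 (the same assembly as mm10), show how the members group. The bases in capitals are the seed, bases 2 to 8, and each seed group ends with a relative from another cluster.
miR-106b-5p: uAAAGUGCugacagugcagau
miR-93-5p: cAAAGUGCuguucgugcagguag
miR-17-5p (miR-17-92 cluster): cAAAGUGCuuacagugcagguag
miR-25-3p: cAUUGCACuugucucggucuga
miR-92a-3p (miR-17-92 cluster): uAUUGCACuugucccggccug
miR-106b-3p: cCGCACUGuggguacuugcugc
miR-93-3p: aCUGCUGAgcuagcacuucccg
miR-25-5p: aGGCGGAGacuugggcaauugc

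Within the cluster, miR-106b-5p and miR-93-5p have the same seed and match at 16 of 21 positions when aligned from the 5′ end without gaps. That seed is found in 5 other miRNAs of the table for each of them, namely each other and miR-17-5p, miR-20a-5p, miR-20b-5p and miR-106a-5p. The seed of miR-25-3p differs from it and is found in 4 others, miR-92a-3p, miR-92b-3p, miR-363-3p and miR-32-5p, and miR-25-3p matches miR-92a-3p at 18 of 21 positions. The seeds of miR-106b-3p, miR-93-3p and miR-25-5p are found in 0 other miRNAs of the table. How reads that match several miRNAs were counted is not given in the sources used here, so counts of near relatives are uncertain to that extent.

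The precursor hairpins, also from RefSeq, are shown because the counts of their arms are compared below. The mature arms are in capitals, the 5p arm first.
Mir106b: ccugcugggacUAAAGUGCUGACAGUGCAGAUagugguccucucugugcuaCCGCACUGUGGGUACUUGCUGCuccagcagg
Mir93: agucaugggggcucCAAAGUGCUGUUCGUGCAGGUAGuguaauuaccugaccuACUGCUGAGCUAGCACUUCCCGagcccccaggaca
Mir25: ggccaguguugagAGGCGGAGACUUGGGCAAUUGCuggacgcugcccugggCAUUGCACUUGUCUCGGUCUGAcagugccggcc

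On the minus strand of mm10, Mir106b lies at chr5:138165737-138165818, Mir93 at chr5:138165523-138165610 and Mir25 at chr5:138165321-138165404. The 3 hairpins span 498 bases in all. In the GENCODE M21 annotation they lie within intron 13 of the coding transcript Mcm7-201, which has 15 exons, in the gene Mcm7 at chr5:138164583-138172422.

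Serum libraries held 45176 to 309133 counts, with a median of 170854, and muscle libraries 254624 to 5943445 counts, with a median of 2169800. Abundance is given below as CPM, counts normalised to the total of the library. A count of 0 allows up to 3 counts, which is 9.70 to 66.4 CPM in serum and 0.505 to 11.8 CPM in muscle; such limits cover counting error only. Old muscle had a median of 2825032 counts and disuse muscle 2298437, against 535754 in young muscle, the shallowest muscle group. The sources went with their markers: 4 miRNAs of muscle fibres (miR-133a-3p, miR-133b-3p, miR-1a-3p and miR-206-3p) summed to 636 to 4646 CPM in serum libraries and to 377004 to 523902 CPM in muscle libraries.

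miR-25-3p was the most abundant member in every group, and miR-93-5p came after it. In serum, miR-25-3p averaged 5868 ± 2149.8 CPM in old mice (SD, n = 4), 6209 ± 1221 CPM in disuse mice and 6471 ± 2050.4 CPM in young mice (n = 5 each), which placed it 24th, 22nd and 24th by abundance. In muscle it averaged 447 ± 116 CPM in old, 466 ± 60.1 CPM in disuse and 409 ± 66.02 CPM in young mice (SD, n = 5 each), with ranks of 74, 71 and 75. These 3 muscle values differed by less than their spread, and so did the 3 serum values.

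For miR-93-5p the levels were 762 ± 278, 812 ± 158 and 872 ± 425 CPM in old, disuse and young serum, against 369 ± 33.3, 295 ± 26.5 and 292 ± 37.7 CPM in old, disuse and young muscle (SD, n = 4 in old serum and n = 5 elsewhere). The order in muscle put old mice above the other groups, which lay within a spread of each other.

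Of the Mir106b arms, miR-106b-3p was counted more often than miR-106b-5p in all 29 libraries. miR-106b-3p averaged 144 ± 98.8, 186 ± 55.9 and 253 ± 76.6 CPM in old, disuse and young serum and 54.8 ± 7.34, 58.8 ± 9.45 and 51.2 ± 14.3 CPM in old, disuse and young muscle. Its partner miR-106b-5p averaged 33.3 ± 24.2, 53.3 ± 31.2 and 62.7 ± 29.5 CPM in the serum groups and 9.84 ± 2.91, 10.7 ± 3.51 and 8.80 ± 4.36 CPM in the muscle groups, in the same order. The 5p share of Mir106b counts was 19.4% ± 8.39, 21.2% ± 6.59 and 20.2% ± 10.7 in serum and 15.2% ± 4.14, 15.3% ± 3.39 and 14.9% ± 5.90 in muscle.

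The arms opposite the 2 abundant members were rare. miR-93-3p averaged 100.7 ± 19.98, 88.5 ± 34.2 and 45.8 ± 16.6 CPM in old, disuse and young serum and 16.2 ± 4.34, 15.7 ± 4.52 and 11.6 ± 4.46 CPM in old, disuse and young muscle. miR-25-5p had 12.6, 15.3, 17.0 and 22.1 CPM in the old serum libraries, 0, 0, 12.0, 9.70 and 16.9 CPM in the disuse serum libraries and 29.9, 11.4, 40.7, 20.6 and 14.5 CPM in the young serum libraries. Those values stand for 0 to 6 counts a library, at or near the limit of what could be detected in serum. In muscle miR-25-5p averaged 22.7 ± 5.59, 29.1 ± 12.7 and 21.2 ± 5.06 CPM in old, disuse and young mice, from 6 to 107 counts a library.

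**Figure D1:**
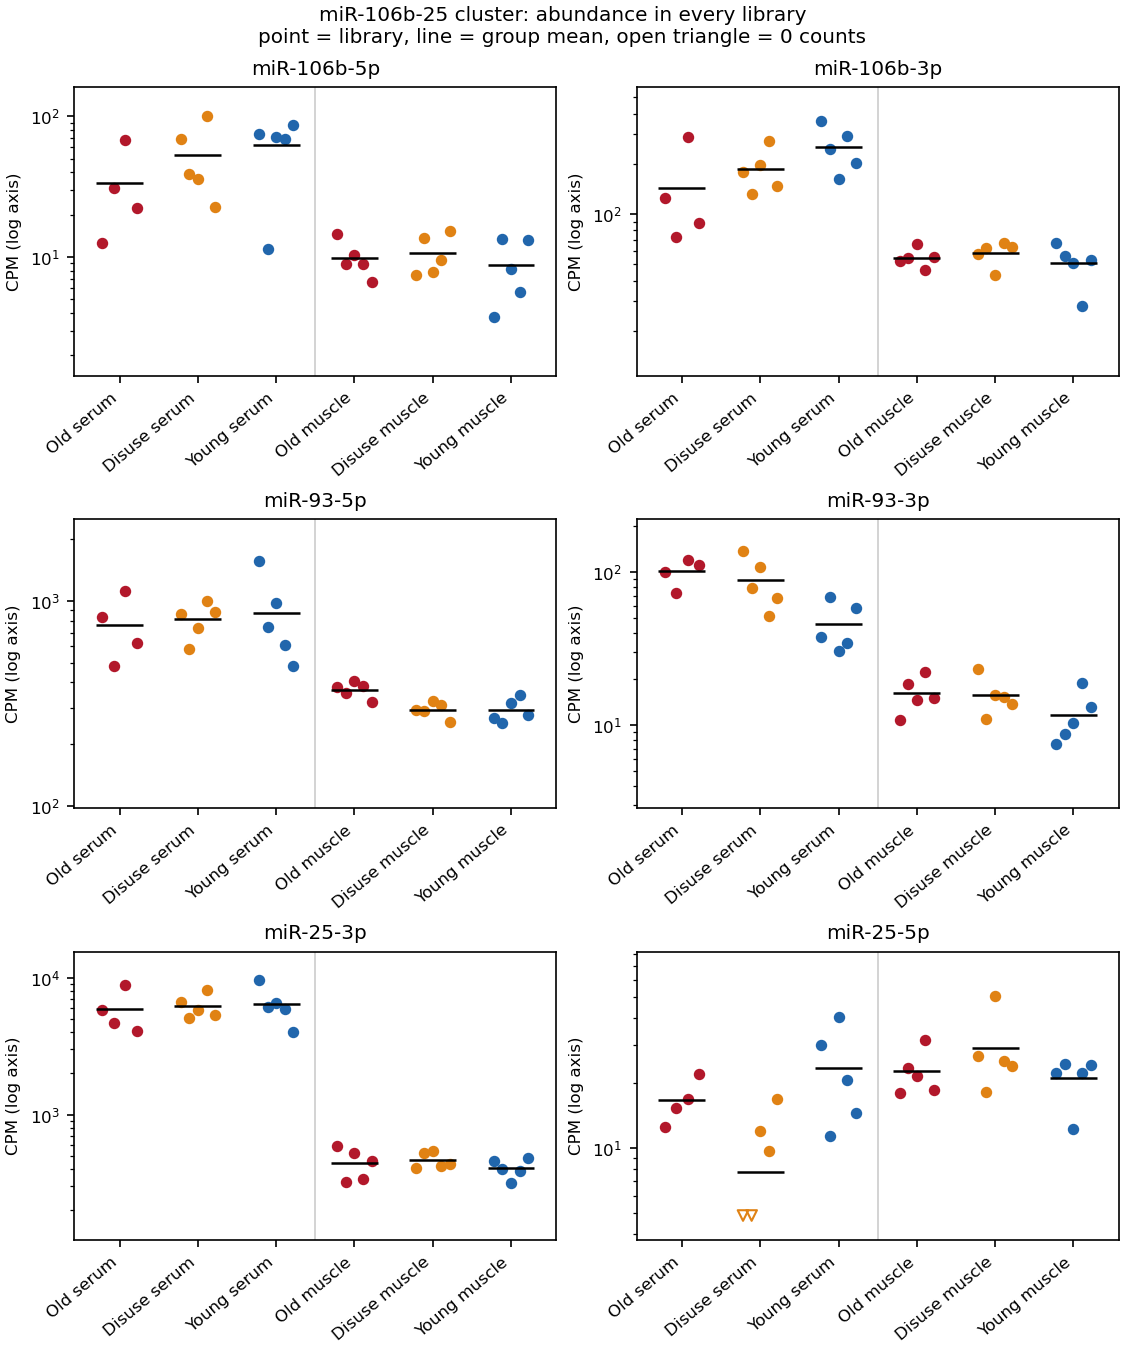
Abundance of each member in CPM (log axis) by library, with a panel for each member, serum groups on the left and muscle groups on the right; lines are group means and open triangles are libraries with 0 counts. Every serum point of miR-25-3p (4011 to 9689 CPM) lies above every muscle point (315 to 593 CPM), while the points of miR-25-5p overlap between the sources except in disuse mice.

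The members with enough counts for the test were higher in serum than in muscle in each condition, apart from miR-25-5p, and miR-25-3p differed the most. miR-25-3p had 5801, 4664, 8912 and 4095 CPM in old serum, against 593, 324, 522, 339 and 455 CPM in old muscle. Disuse serum had 6646, 5077, 5821, 8119 and 5380 CPM, against 409, 523, 538, 424 and 436 CPM in disuse muscle. Young serum had 9689, 6135, 6582, 5938 and 4011 CPM, against 462, 400.0, 315, 385 and 481 CPM in young muscle. In all 3 conditions the lowest serum library lay above the highest muscle library.

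In edgeR's quasi-likelihood test, with TMM scaling and Benjamini-Hochberg adjustment over all miRNAs tested, the log2 fold change of miR-25-3p was 3.28 ± 0.29 (SE) in old mice (adjusted p = 1.57e-09). It was 3.26 ± 0.16 in disuse mice (adjusted p = 5.24e-12) and 3.40 ± 0.33 in young mice (adjusted p = 1.05e-08). Over the scalings, filters and tools tried and with each library left out, these values stayed between 2.98 and 3.72 in old, 3.14 and 3.74 in disuse and 3.19 and 3.99 in young mice.

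In old mice 5 of the 6 members were called higher in serum (adjusted p under 0.05), where 24.7% of the 316 tested miRNAs were called higher and 69.3% were called in either direction. Besides miR-25-3p, miR-93-3p was higher by 2.26 ± 0.33 on the log2 scale (edgeR adjusted p = 2.53e-06), miR-106b-5p by 1.55 ± 0.47 (0.00578), miR-106b-3p by 1.01 ± 0.35 (0.0137) and miR-93-5p by 0.62 ± 0.25 (0.0320). miR-25-5p was at -0.78 ± 0.46 and did not pass (adjusted p = 0.138). The median over the 6 members was 1.28, against -0.87 over all tested miRNAs.

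The calls for the less abundant members in old mice rested partly on old serum 3, which had the highest level of miR-106b-5p, miR-106b-3p, miR-93-5p and miR-25-3p among old serum libraries. Without it 2 members were called, miR-25-3p and miR-93-3p, where 64.4% of 329 tested miRNAs were called in either direction. miR-106b-5p was then at 1.13 (adjusted p = 0.112), miR-106b-3p at 0.39 (0.348) and miR-93-5p at 0.35 (0.265). The call of miR-93-5p was also lost without old serum 1 (0.64, adjusted p = 0.0637) and without old muscle 4 (0.58, adjusted p = 0.0818). Other processing took it away as well: adjusted p was 0.0653 with RLE factors, 0.0616 with the table's incomplete lines included, 0.407 with no filter on low counts and 0.0986 with a replicate block. miR-106b-3p lost its call with no filter (0.72, adjusted p = 0.0860) and with the block (0.87, adjusted p = 0.0558).

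In disuse mice 4 of 6 members passed the filter on low counts, and all 4 were called higher in serum, where 38% of 192 tested miRNAs were called higher and 86.5% in either direction. The filter partly set this count: miR-93-3p passed it through serum alone, with 51.8 to 138 CPM there and 11.0 to 23.1 CPM in disuse muscle. With no filter, miR-93-3p was at 1.93 in edgeR's test (adjusted p = 1.38e-10). On the log2 scale, miR-93-3p was higher by 1.94 ± 0.31 (edgeR adjusted p = 1.80e-05), miR-106b-3p by 1.12 ± 0.22 (1.59e-04) and miR-93-5p by 0.98 ± 0.15 (1.35e-05). The filter had left out miR-106b-5p, which had 68.8, 39.0, 35.9, 100.3 and 22.6 CPM in disuse serum and 7.40, 13.7, 7.85, 9.57 and 15.2 CPM in disuse muscle, with no overlap. It had also left out miR-25-5p, which went the other way: 0 to 16.9 CPM in disuse serum against 18.2 to 51.1 CPM in disuse muscle. The counts of 0 were in disuse serum 1 and 2, where they allow up to 17.2 and 23.4 CPM, so the second of these limits lies above the lowest muscle library. With no filter on low counts, miR-106b-5p was at 1.72 in edgeR's test (adjusted p = 4.20e-07). miR-25-5p was then at -2.14 and was called lower in serum (adjusted p = 3.16e-05).

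Young mice had 3 of 6 members in the fit and 3 called higher in serum, where 32.6% of 190 tested miRNAs were called higher and 76.3% in either direction. The log2 fold change was 1.80 ± 0.37 for miR-106b-3p (adjusted p = 1.60e-04) and 0.98 ± 0.29 for miR-93-5p (adjusted p = 0.00460). With no filter on low counts, miR-106b-5p was at 1.83 (adjusted p = 0.00110), miR-93-3p at 1.25 (0.0413) and miR-25-5p at -0.63 (0.363) in edgeR's test. Without young muscle 1, 5 members were in the fit and 5 were called, where 72.2% of 205 tested miRNAs were called in either direction. In that fit miR-106b-5p and miR-93-3p passed the filter through serum alone, with at most 13.4 and 18.7 CPM in young muscle.

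**Figure D2:**
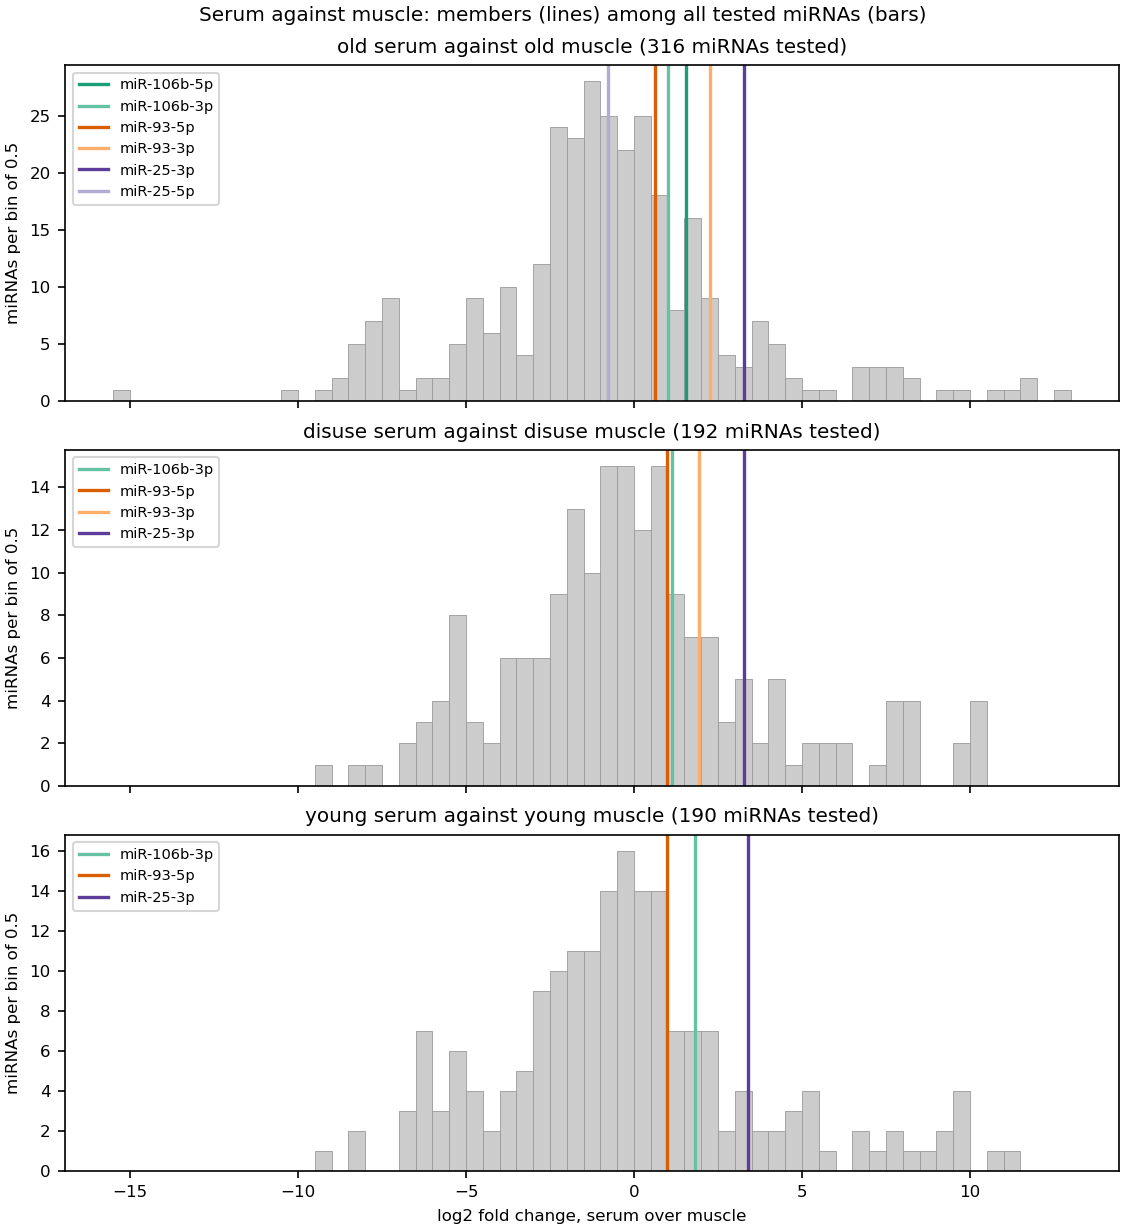
Log2 fold change of serum over muscle (horizontal axis) for all miRNAs tested by edgeR (grey bars, number per bin of 0.5) and for the members in each fit (coloured lines), in old, disuse and young mice from top to bottom. With the TMM scaling shown, miR-25-3p lies near 3.3 in all 3 panels and miR-93-5p between 0.62 and 0.98, while most tested miRNAs lie at or below 0. With library totals instead, the median of all tested miRNAs lay above 0 in disuse (0.13) and young mice (0.17).

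Serum and muscle differ in extraction kit and RNA input as well as in source, per the labels' protocols, and these cannot be told apart. In muscle, fewer cells of a type and less RNA per cell cannot be told apart. In serum, the level of a cell type's miRNAs is no measure of cell number. The erythrocyte list (miR-451a, miR-144-3p, miR-144-5p, miR-486-5p and miR-16-5p) had all 5 miRNAs called higher in serum in each condition. Its sum was 140698 to 366745 CPM in serum libraries and 41125 to 92629 CPM in muscle libraries, mostly miR-486-5p, which muscle also makes. miR-451a, made in red cells, averaged 6624, 10290 and 12436 CPM in old, disuse and young serum, against 46.6, 37.3 and 56.3 CPM in old, disuse and young muscle. Of 4 leukocyte miRNAs, miR-142-3p, miR-142-5p and miR-223-3p were called higher and miR-150-5p lower in serum in each condition, and the liver miRNA miR-122-5p was called higher in each. The endothelial pair, miR-126a-3p and miR-126a-5p, summed to 6085, 8455 and 7617 CPM in old, disuse and young serum, against 1255, 1180 and 1595 CPM in old, disuse and young muscle. miR-126a-5p was called higher in serum in old, disuse and young mice (log2 fold change 2.60, 2.95 and 2.06), and miR-126a-3p in disuse mice (1.00). The part of these cell types in the members' levels was not tested.

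The members did not share a common ratio between the sources. miR-25-3p made up 84.8% ± 2.00, 84.4% ± 1.21 and 83.8% ± 1.32 of the cluster's counts in old, disuse and young serum, against 48.0% ± 6.60, 53.1% ± 3.10 and 51.2% ± 5.13 in old, disuse and young muscle. miR-93-5p made up 11.0% ± 1.58, 11.1% ± 1.41 and 10.9% ± 1.88 in the serum groups, against 40.5% ± 4.83, 33.8% ± 2.30 and 37.1% ± 6.08 in the muscle groups. The 6 members together averaged 6924, 7356 and 7727 CPM in serum and 919, 875 and 794 CPM in muscle.

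**Figure D3:**
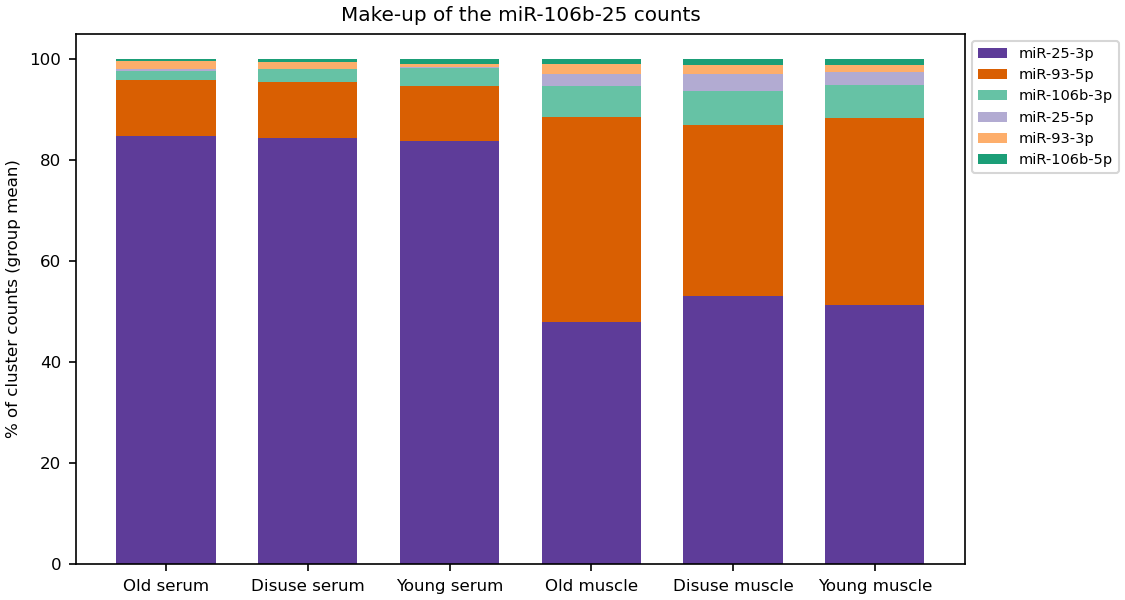
Share of the cluster's counts taken by each member (vertical axis, mean percent over the libraries of a group), for the 3 serum groups and the 3 muscle groups. miR-25-3p takes 83.8% to 84.8% in serum and 48.0% to 53.1% in muscle, where miR-93-5p takes 33.8% to 40.5%.

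A ratio of 2 members within a library needs no scaling between libraries. The log2 ratio of miR-93-5p to miR-25-3p was -2.80, -3.28, -2.99 and -2.70 in old serum, against -0.64, 0.12, -0.36, 0.18 and -0.51 in old muscle. It ranged over -3.11 to -2.61 in disuse serum, against -0.85 to -0.45 in disuse muscle, and over -3.29 to -2.64 in young serum, against -0.80 to 0.01 in young muscle. Serum and muscle did not overlap in any condition, and the means differed by -2.70, -2.28 and -2.48 in old, disuse and young mice. Ratios of miRNA pairs outside the cluster were not counted for overlap, here or for the arms below. Of all tested miRNAs, 69.3%, 86.5% and 76.3% were called between the sources in old, disuse and young mice. The separation is therefore not read as particular to the cluster.

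The exact two-sided permutation p of these differences was 0.0159 in old and 0.00794 in disuse and in young mice, the smallest that 4 against 5 and 5 against 5 libraries allow. Adjusted over the 42 planned ratio tests that were run, these became 0.0741 and 0.0667, so 0 of the 42 passed. A single test at the smallest p cannot pass this adjustment. The ratio in serum differed between conditions by less than its spread, at -2.94 ± 0.25 in old, -2.93 ± 0.19 in disuse and -2.95 ± 0.26 in young mice (SD). For miR-106b-5p over miR-25-3p, serum and muscle means differed by -1.86 in old, -1.53 in disuse and -1.30 in young mice, with overlap in young mice only. The exact permutation p was 0.0159, 0.00794 and 0.0397 (adjusted p = 0.0741, 0.0667 and 0.154), on 1 to 31 counts of miR-106b-5p a serum library.

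The arms of Mir25 were also counted in unlike proportions. Old serum libraries held 9 counts of miR-25-5p in all beside 3440 of miR-25-3p, disuse serum libraries 8 beside 6247 and young serum libraries 17 beside 5021. Old muscle libraries held 320 beside 7626, disuse muscle libraries 280 beside 5665 and young muscle libraries 140 beside 2597. The 5p share of Mir25 counts was thus 0.318% ± 0.16, 0.128% ± 0.14 and 0.363% ± 0.16 in old, disuse and young serum, against 5.23% ± 2.35, 5.80% ± 1.91 and 4.89% ± 0.79 in old, disuse and young muscle (SD).

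With 0.5 counts added to both arms, the log2 ratio of 5p to 3p of Mir25 differed between serum and muscle by -3.75 in old, -5.48 in disuse and -3.70 in young mice, without overlap in any of them (exact permutation p = 0.0159, 0.00794 and 0.00794, adjusted p = 0.0741, 0.0667 and 0.0667). The size in disuse mice depends on the added count, since disuse serum 1 and 2 had 0 counts of miR-25-5p, and with 1 count added the differences were -3.47, -4.96 and -3.53. For Mir93 the 5p arm made up 87.8% ± 2.48, 89.9% ± 3.84 and 94.0% ± 3.60 of counts in old, disuse and young serum, against 95.8% ± 1.11, 94.9% ± 1.37 and 96.2% ± 1.02 in old, disuse and young muscle. Old serum lay below old muscle in every library (difference -1.72 on the log2 scale, exact permutation p = 0.0159, adjusted p = 0.0741), and the other conditions overlapped. The Mir106b arms overlapped between serum and muscle in disuse and young mice, and were not tested in old mice, where a serum library held fewer than 10 counts of both arms together.

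**Figure D4:**
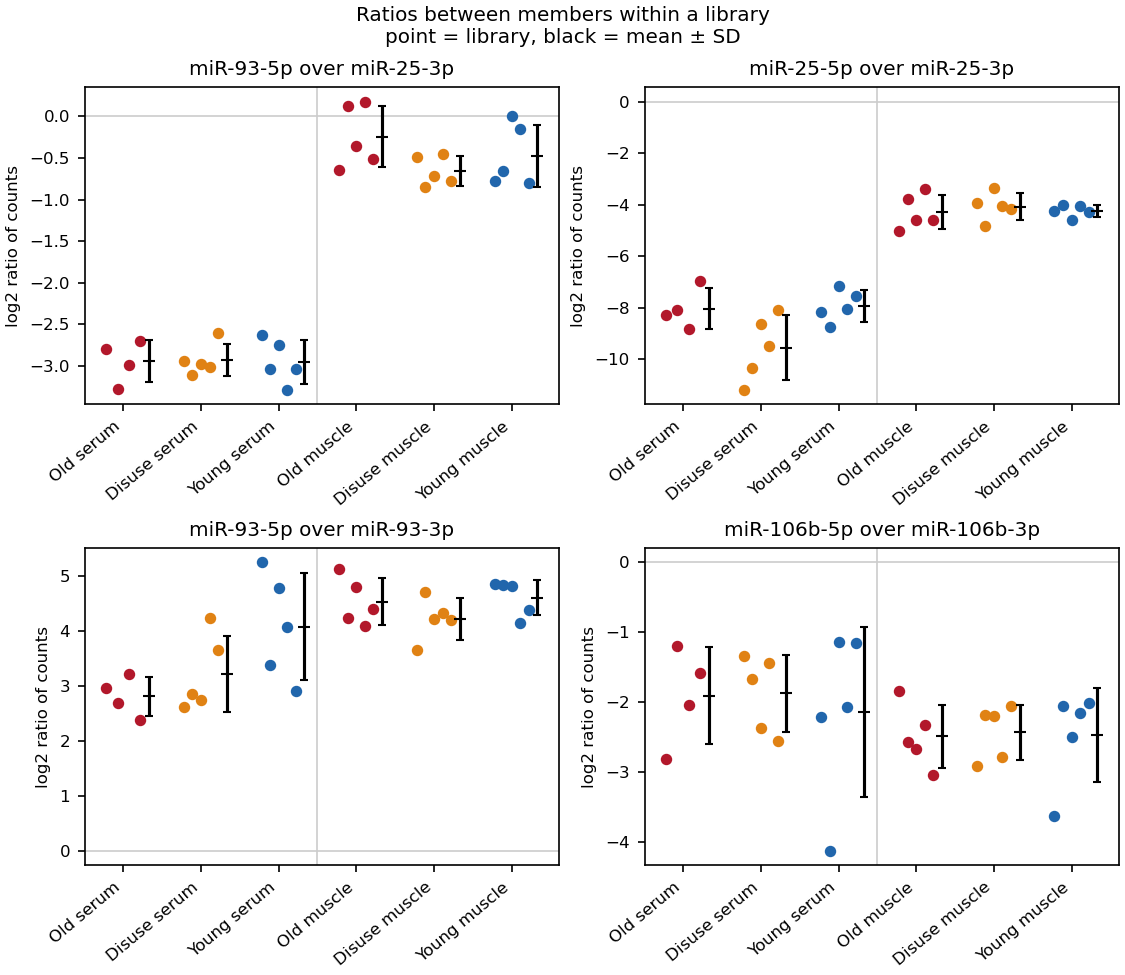
Log2 ratio of counts of 2 members within a library (vertical axes), by group, with points for libraries and black bars for the mean ± SD. miR-93-5p over miR-25-3p and miR-25-5p over miR-25-3p separate the serum points from the muscle points, while the Mir93 arms separate them in old mice only and the Mir106b arms overlap.

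miR-92a-3p, which has the seed of miR-25-3p and was the most abundant miRNA of that seed group, did not pass the test between the sources in any condition, and its direction depended on the scaling. It averaged 19942 ± 4275, 19213 ± 2547 and 19716 ± 1664 CPM in old, disuse and young serum, against 17970 ± 3624, 17776 ± 2381 and 18972 ± 4702 CPM in old, disuse and young muscle. TMM scaling between the sources turned the order of these CPM means: with it, the log2 fold change of serum over muscle was -0.25, -0.35 and -0.38 in old, disuse and young mice (edgeR adjusted p = 0.305, 0.0600 and 0.201). With library totals alone, as in CPM, it was 0.15, 0.11 and 0.057 (adjusted p = 0.616, 0.525 and 0.846). In disuse mice it passed as lower in serum under 3 of 20 alternatives, with adjusted p from 0.0254 to 0.594 over the 20.

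The log2 ratio of miR-25-3p to miR-92a-3p was picked after both had been seen, so it is given as a description. A permutation test of it was run outside the 42 planned ratio tests and is not used here. It was -1.80 ± 0.28 in old serum against -5.35 ± 0.64 in old muscle (SD). It was -1.64 ± 0.41 in disuse serum against -5.25 ± 0.23 in disuse muscle, and -1.66 ± 0.39 in young serum against -5.51 ± 0.59 in young muscle. The means differed by 3.54, 3.61 and 3.85 in old, disuse and young mice.

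Of the other relatives of miR-25-3p, miR-92b-3p was called higher in serum in old mice (log2 fold change 1.71, edgeR adjusted p = 4.79e-05) and in disuse mice (1.04, adjusted p = 4.42e-04), and had 0.62 in young mice (adjusted p = 0.0807, or 1.14 and 0.00291 with library totals). The 4 relatives of miR-93-5p outside the cluster summed to 44.7, 58.9 and 74.9 CPM in old, disuse and young serum and 39.7, 28.4 and 30.2 CPM in old, disuse and young muscle, below miR-93-5p alone in every group. Of these, 2 were in the fit in old mice and 0 passed, with miR-17-5p at 0.10 (adjusted p = 0.829), and 0 were in the fits of disuse and young mice. Of the other products of the paralogous clusters, miR-19b-3p was called higher in serum in old, disuse and young mice (3.83, 4.20 and 1.99). Of these products, 4 were in the fit in old mice, where miR-17-3p was called lower (-2.13, adjusted p = 0.0122) on 3 counts in all old serum libraries, and miR-19b-3p alone was in the other fits. The filter partly set these calls. miR-17-3p passed it through muscle in old mice. miR-19b-3p passed it through serum in disuse mice (83.7 to 231 CPM, against 3.92 to 27.5 CPM in muscle). In young mice it did so with 74.1 to 214 CPM in serum, against 1.84 to 63.5 CPM in muscle.

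Within muscle, 0 members passed the threshold for age or disuse. miR-93-5p had the smallest p with age. It had 381, 353, 407, 383 and 320 CPM in old muscle, against 268, 254, 317, 345 and 277 CPM in young muscle. All 5 old libraries lay above the young median and 4 above the highest young library, but the groups overlapped. In edgeR's quasi-likelihood test the log2 fold change was 0.33 ± 0.16, with an unadjusted value of 0.0432 and adjusted p = 0.210. It stayed between 0.12 and 0.48 under every alternative and with each library left out.

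Between old and young muscle 0 of 6 members were called, where 5.87% of 341 tested miRNAs were. The other members had log2 fold changes of 0.39 (miR-93-3p), 0.14 (miR-25-3p), 0.10 (miR-106b-3p), -0.02 (miR-25-5p) and -0.09 (miR-106b-5p), with edgeR adjusted p from 0.456 to 0.984. Their median with miR-93-5p was 0.12, against -0.01 over all tested miRNAs. The standard errors of the 6 were 0.16 to 0.34, which is of the order of these differences.

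Among the relatives, miR-92a-1-5p, the arm opposite a copy of miR-92a-3p in the miR-17-92 cluster, was called higher in old than in young muscle. The fit held 2 relatives of miR-93-5p, 3 of miR-25-3p and 4 other products of the paralogous clusters, with 0, 0 and 1 called. Of 341 tested miRNAs, 5.87% were called and 1.17% were called higher. Old muscle averaged 20.4 ± 4.44 CPM of it and disuse muscle 21.4 ± 1.47 CPM, against 10.3 ± 2.92 CPM in young muscle (SD, n = 5 each), and the old range of 12.9 to 24.5 CPM overlapped the young range of 7.45 to 14.3 CPM. The log2 fold change of old over young was 0.88 ± 0.24 (edgeR adjusted p = 0.0263), and it passed under 19 of 25 alternatives (adjusted p from 0.0114 to 0.107). It failed without old muscle 1 (adjusted p = 0.0607). Disuse over young gave 1.03 ± 0.25 (adjusted p = 0.0652), and passed under 3 of 25 alternatives.

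Between disuse and young muscle 0 of 6 were called, where 0.293% of tested miRNAs were. All 6 log2 fold changes were above 0, from 0.09 (miR-93-5p) to 0.46 (miR-93-3p), with a median of 0.28 against 0.00 over all tested miRNAs and edgeR adjusted p from 0.670 to 0.886. With upper-quartile factors the median of all tested miRNAs moved to -0.19, and miR-106b-5p and miR-93-5p were then at -0.04 and -0.09. Old and disuse muscle are compared with the same young libraries.

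Between old and disuse muscle 0 of 6 were called, where 3.52% of tested miRNAs were. miR-93-5p had 381, 353, 407, 383 and 320 CPM in old muscle, against 292, 291, 326, 311 and 255 CPM in disuse muscle, with 4 old libraries above all disuse libraries and the lowest old library within their range. Its log2 fold change was 0.24 ± 0.15 (edgeR adjusted p = 0.531). The other 5 lay between -0.31 (miR-25-5p) and -0.07 (miR-93-3p).

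Within serum, miR-93-3p and miR-106b-3p had the largest fitted differences from young mice among the 5 members in the fit, in opposite directions. miR-93-3p had 100.4, 72.9, 119 and 111 CPM in old serum and 138, 78.0, 108, 51.8 and 67.7 CPM in disuse serum, against 37.4, 68.4, 30.5, 34.4 and 58.1 CPM in young serum. Every old library lay above every young library, with 72.9 against 68.4 CPM at the nearest. So did 3 of 5 disuse libraries, while the old and disuse libraries overlapped. How many other tested miRNAs separate old from young serum was not counted, so the separation is not read as particular to miR-93-3p. These are 5 to 21, 10 to 24 and 3 to 12 counts a library.

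Old against young serum gave miR-93-3p a log2 fold change of 1.09 ± 0.40, with edgeR adjusted p = 0.107 and an unadjusted value of 0.0149. Disuse against young serum gave 0.89 ± 0.38, with edgeR adjusted p = 0.358 and an unadjusted value of 0.0302. Neither passed, and both use the same young libraries. Within a library, the log2 ratio of miR-93-5p to miR-93-3p was 2.97, 2.69, 3.21 and 2.37 in old serum, against 5.24, 3.38, 4.79, 4.07 and 2.90 in young serum. Its difference of -1.27 had an exact permutation p of 0.0476 and an adjusted p of 0.154.

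miR-106b-3p had 126, 72.9, 288 and 88.5 CPM in old serum, against 359, 245, 163, 292 and 203 CPM in young serum. In 3 of 4 old libraries it lay below every young library, and old serum 3 lay among them. The log2 fold change was -0.86 ± 0.37, with edgeR adjusted p = 0.165 and an unadjusted value of 0.0321. Without old serum 3 it was -1.37 and passed (adjusted p = 0.0423). Over the other alternatives and left-out libraries it lay between -1.02 and -0.61, with 0 members called in each.

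Between old and young serum 0 of 5 members in the fit were called, where 9.7% of 165 tested miRNAs were. miR-25-3p was at -0.13, miR-93-5p at -0.15 and miR-106b-5p at -0.67 (edgeR adjusted p = 0.817, 0.781 and 0.465). miR-25-5p was too low to be tested. The erythrocyte list was lower in old serum for 2 of its 5 miRNAs, miR-451a (-0.82, adjusted p = 0.0363) and miR-144-5p (-2.16, adjusted p = 0.0154), with a sum of 140698 to 275259 CPM in old serum and 232115 to 366745 CPM in young serum. Its part in the members' values was not tested.

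Between disuse and young serum 0 of 5 members were called, where 0% of tested miRNAs were; 20 of 165 had an unadjusted p under 0.05, and DESeq2 and limma-voom also called 0. miR-106b-3p was at -0.52 (edgeR adjusted p = 0.565), miR-106b-5p at -0.23, miR-25-3p at -0.07 and miR-93-5p at -0.06. Between old and disuse serum 0 of 5 were called, where 2.42% were, and the 5 members lay between -0.44 (miR-106b-5p) and 0.21 (miR-93-3p). The mean log2 ratio of the Mir25 arms differed by -1.61 between disuse and young serum, on 8 and 17 counts of miR-25-5p in all (exact permutation p = 0.0476, adjusted p = 0.154).

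**Figure D5:**
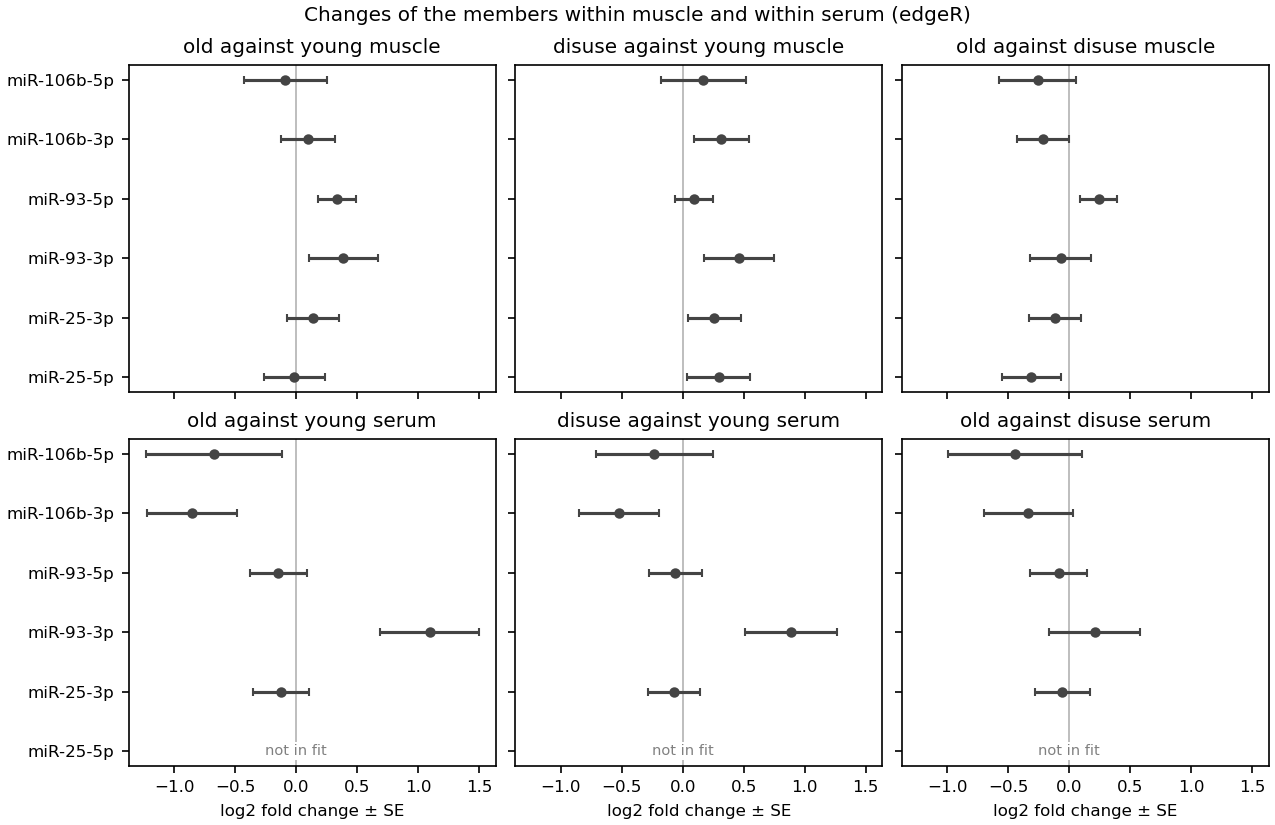
Log2 fold change ± SE (edgeR) of each member for the 3 comparisons within muscle (top) and the 3 within serum (bottom); miR-25-5p was not in the serum fit. Most bars cross or come near 0, and miR-93-3p (1.09 and 0.89) and miR-106b-3p (-0.86 and -0.52) lie furthest from it in serum against young mice.

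An interaction term in a fit of all 29 libraries compared each change in serum with the change in muscle. For age 0 of 5 members in the fit were called, where 0.83% of 241 tested miRNAs were, and for disuse 0 of 5, where 0% were. The smallest p-values belonged to miR-106b-3p, with -0.78 ± 0.43 for age (edgeR adjusted p = 0.399) and -0.62 ± 0.41 for disuse (0.744). miR-93-3p had 0.84 ± 0.50 for age (0.459) and 0.64 ± 0.49 for disuse (0.759). For disuse, 24 miRNAs had an unadjusted p under 0.05. DESeq2 and limma-voom also called 0 members in both interactions and in the 6 comparisons within a source.

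The members' patterns across libraries were compared with those of every tested miRNA by the root mean square difference of log2 CPM after centring each miRNA on its own mean. Over the 14 serum libraries the nearest of 165 miRNAs to miR-93-5p was miR-25-3p, at 0.21 log2 units, and the nearest to miR-25-3p was miR-93-5p. miR-16-5p (0.23) and miR-27b-3p (0.24) came next for miR-93-5p, and miR-27a-3p and miR-140-3p (0.26 each) for miR-25-3p. miR-93-3p ranked 130th from miR-93-5p, with 0.74.

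Over the 15 muscle libraries the members were not each other's nearest. miR-25-3p ranked 65th of 341 from miR-93-5p, at 0.33, behind miR-378a-3p and miR-204-5p at 0.18 each and miR-30a-3p at 0.19. For miR-25-3p the nearest were miR-199a-3p (0.18), miR-133a-3p and miR-199b-3p (0.19 each), and miR-93-5p ranked 40th. These distances are descriptions, since libraries share depth and scaling, and miRNAs with few counts lie far from all others.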

How the data were processed

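The authors deposited raw counts of reads for each mature miRNA in each library, with no scaling. Per the submitters' processing notes the tools and build were Bowtie and mm10. Neither the Bowtie version, nor the annotation, nor how reads matching several miRNAs were counted is given in the sources used here. Of 1183 lines, 488 lack a value and were left out (17450 counts, 0.0518% of muscle counts); the last column's values in complete lines are counts.

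Tests used edgeR 4.0.16 in R 4.3.3 (glmQLFit, glmQLFTest) with TMM factors, filterByExpr and Benjamini-Hochberg adjustment over all tested miRNAs, threshold 0.05. The 15 muscle libraries shared a fit, as did the 14 serum libraries; serum and muscle were compared within a condition, and interactions over 29 libraries. Ratios had 0.5 counts added to both sides, needed 10 counts in every library and were tested by exact two-sided permutation (scipy 1.17.1). Members and lists were chosen with earlier results of these data known. All 6 members are named; relatives and markers come from fixed lists. Libraries of a group differed beyond counting noise (chi-square per degree of freedom at least 15.7 over 56 pairs).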

Additional observations from a re-analysis of the deposited data

Results flagged for a closer look

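A gap to the nearest other library larger than Dixon's 95% limit was found in 4 of 66 groups of values tested, where chance gives about 1 in 20. miR-106b-5p in young serum 2 was the lowest of its group at 11.4 CPM (2 counts), with the other young serum libraries at 68.8 to 87.2 CPM. miR-25-5p in disuse muscle 3, the shallowest muscle library, was the highest at 51.1 CPM (13 counts), with the others at 18.2 to 26.8 CPM. miR-25-5p in young muscle 3 was the lowest at 12.3 CPM (6 counts), with the others at 22.4 to 24.4 CPM. The log2 ratio of miR-106b-5p to miR-25-3p in old serum 1 was the lowest at -8.27 (1 count of miR-106b-5p), with the others at -7.16 to -6.95.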

How the results depend on the processing

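The number of members called stayed within 1.5 times the reported count under every alternative run in 8 of the 11 comparisons, and 0 of the planned ratio tests passed under any of them. These numbers join both directions: with no filter, miR-25-5p was called lower in disuse serum than in disuse muscle. The share of all tested miRNAs called in either direction is given in brackets. Old serum against old muscle had 5 members called (69.3%), 3 with no filter on low counts (42.1%) and 3 with a replicate block (65.8%). It had 2 to 5 with each library left out, with 2 without old serum 3 (64.4%). Young serum against young muscle had 3 (76.3%). It had 5 with no filter (42.7%), with a filter of 10 CPM (69.6%) and with all 29 libraries in the fit (80.9%), where more members were tested. It had 3 to 5 with each library left out, with 5 without young muscle 1 (72.2%). Old against young serum had 0 (9.7%), and 0 to 1 with each library left out, with 1 without old serum 3 (7.06%).

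Values near 0 changed sign; the cause was not tested. With upper-quartile factors, old against young muscle gave -0.10 (miR-106b-3p) and -0.083 (miR-25-3p), disuse against young muscle -0.036 (miR-106b-5p) and -0.091 (miR-93-5p), and disuse against young serum 0.0022 (miR-93-5p). miR-25-5p in old against young muscle gave 0.023 with library totals, 0.084 with no filter, 0.034 with 10 CPM, 0.049 with only both groups and 0.082 with incomplete lines. miR-93-3p in old against disuse muscle gave 0.020 with library totals, 0.018 with no filter and 0.020 with incomplete lines. In old against young serum, 10 CPM gave 0.017 (miR-93-5p) and 0.030 (miR-25-3p). In disuse against young serum, miR-93-5p and miR-25-3p gave 0.024 and 0.0081 with RLE factors (DESeq2's kind), 0.12 and 0.11 with no filter, 0.13 and 0.11 with 10 CPM, 0.017 and 0.0071 with DESeq2, and 0.068 and 0.053 with only both groups; miR-106b-5p gave 0.012 with limma-voom.

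With each library left out, ranges that crossed 0 were, in old against young muscle, -0.36 to 0.15 (miR-106b-5p), -0.11 to 0.14 (miR-25-5p) and -0.025 to 0.33 (miR-25-3p). In old against disuse muscle they were -0.19 to 0.18 (miR-93-3p) and -0.28 to 0.053 (miR-25-3p). In disuse against young serum they were -0.55 to 0.10 (miR-106b-5p), -0.16 to 0.073 (miR-25-3p) and -0.16 to 0.19 (miR-93-5p), in old against young serum -0.29 to 0.091 (miR-25-3p) and -0.31 to 0.099 (miR-93-5p), and in old against disuse serum -0.22 to 0.038 (miR-25-3p) and -0.020 to 0.38 (miR-93-3p).

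Whether the replicate numbers pair samples is not known. In their deviations from the group mean, every same-numbered pair correlated above 0.1 in 0 of 15 pairs of groups. Of 70 such pairs, 12 correlated best with their own number. This cannot exclude pairing, since libraries from the same animal need not share such deviations. With the replicate block, miR-106b-5p in old against young muscle was at 2.22e-05. All miRNAs called ranged over the alternatives from 16 to 36 for old against young muscle (20 as reported), 0 to 3 for disuse against young muscle (1), 1 to 21 for old against young serum (16), 0 to 6 for old against disuse serum (4), 0 to 5 for disuse against young serum (0) and the disuse interaction (0), 1 to 11 for the age interaction (2), 161 to 327 for disuse (166) and 142 to 270 for young (145) serum against muscle. Library totals moved the median of all miRNAs in serum against muscle to -0.48 in old, 0.13 in disuse and 0.17 in young mice. Depth limits miR-25-5p and miR-106b-5p in serum, at 0 to 31 counts a library.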
